A study of Mus musculus with 4 samples.

Results

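Cdca7, its relative Cdca7l, the chromatin remodeller Hells and the maintenance methylation genes Uhrf1 and Dnmt1 were examined in the mouse melanoma line B16-OVA, which carries ovalbumin. They are 5 of 22180 genes that could be named and compared, and each was measured by 1 probe. The genes were taken by name because their proteins work together on inherited DNA methylation. They were also chosen by measured values of the comparison described here, since Cdca7 had the most negative difference of any gene in it, so the levels of these 5 genes are given as a description and not as a test.

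The series held 4 gene arrays. On 2 of them was RNA from cells labelled as mock transfected, and on the other 2 RNA from cells transfected with AT90ES, a name that the series text links to double-stranded DNA of 90 base pairs. Transfection used Lipofectamine, a cationic lipid that carries DNA into cells, and lasted 6 hours. The labels give the same treatment text to every array, so the mock cells' own treatment is unknown here, and the DNA's effect cannot be told apart from that of transfection. No label says that the arrays of a group came from separate cultures, so the spread between them may be technical. All cells were of the same line, and 7 of 7 melanoma markers lay above background on each array, where background is the 95th percentile of the olfactory receptor genes. So did 3 of 7 markers of myeloid cells, 1 of 5 of lymphocytes and 4 of 8 of fibroblasts and endothelium. This background was 4.85 to 5.07, below the median gene of every array, so most genes passed it. A marker above it thus says little about the cells present. Ccl5 and Cxcl10, chemokines of the response to cytosolic DNA, were higher with AT90ES by 6.32 ± 0.12 and 5.11 ± 0.12 on the log2 scale (SE; limma adjusted p = 8.48e-05 and 0.000171). The median log2 level of genes lay between 5.23 and 5.34 on the 4 arrays.

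When a cell copies its DNA, each new strand starts without methyl groups. UHRF1 reads such hemimethylated CpG sites, tags histone H3 with ubiquitin and so brings in DNMT1, the enzyme that methylates the new strand. HELLS, also called LSH, is an ATP-driven remodeller of the SNF2 family that opens packed chromatin for these enzymes, and CDCA7 is the zinc finger protein that brings HELLS to chromatin and activates it. Mutations in human CDCA7, HELLS, ZBTB24 or DNMT3B cause ICF syndrome, an immune deficiency with loss of methylation at satellite repeats. The genes are most active in dividing cells, around S phase, where factors of the E2F family drive many of the genes needed to copy DNA.

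The promoters are shown because 4 of the 5 genes share a short motif in them. RefSeq windows of 300 bases (250 before and 50 after a transcription start, build GRCm38.p6) were matched by symbol for 5 of 5 genes, with 1 window each for Cdca7, Cdca7l and Hells, 2 for Uhrf1 and 3 for Dnmt1. Capitals mark matches to the E2F site in the next 4 lines, the core of the site described for the transcription factor ZBTB24 in Cdca7, and CCAAT, the box bound by NF-Y, in Uhrf1. Each run reads along the gene's own strand, so a match to the other strand appears as its reverse complement (GCGGGAAA for TTTCCCGC). The Cdca7 and Hells runs are the 250 bases before the start, at chr2:72475969-72476218 and chr19:38930740-38930989, both on the plus strand. The Uhrf1 run is a stretch of 120 bases before the second start, chr17:56304108-56304227, plus strand, and the Dnmt1 run is 30 bases around a match before the third start, chr9:20952825-20952854, minus strand.
Cdca7: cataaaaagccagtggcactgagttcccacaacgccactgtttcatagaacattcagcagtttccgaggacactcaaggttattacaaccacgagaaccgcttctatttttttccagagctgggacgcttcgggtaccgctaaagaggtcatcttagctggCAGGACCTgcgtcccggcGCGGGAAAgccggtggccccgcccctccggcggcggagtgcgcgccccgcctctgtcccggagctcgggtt
Hells: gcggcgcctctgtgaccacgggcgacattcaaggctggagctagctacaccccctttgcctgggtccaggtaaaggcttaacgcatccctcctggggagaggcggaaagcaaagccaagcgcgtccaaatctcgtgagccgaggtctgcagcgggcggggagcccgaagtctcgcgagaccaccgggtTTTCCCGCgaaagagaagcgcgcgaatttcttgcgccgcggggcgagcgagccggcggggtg
Uhrf1: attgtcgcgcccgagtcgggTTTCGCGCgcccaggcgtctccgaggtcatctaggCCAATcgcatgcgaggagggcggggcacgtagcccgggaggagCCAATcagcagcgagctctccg
Dnmt1: tggtttccgcgcGCGCGAAAaagccggggt

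The E2F site was searched on both strands as TTTCCCGC, TTTCGCGC, TTTGCCGC or TTTGGCGC. Cdca7 held it on the other strand, its first base 71 bases before the start, and Hells on the gene strand, 62 bases before the start, both as TTTCCCGC. Uhrf1 held TTTCGCGC 185 bases before the second start, and Dnmt1 held TTTCGCGC on the other strand 219 bases before the third start, with TTTGGCGC from base 34 after it. Cdca7l held none. A match was present in 2.27% of all 32851 windows and in 5.22% of the 6053 windows with at least 25 CpG dinucleotides. The windows with a match in Cdca7, Hells, Uhrf1 and Dnmt1 had 26, 34, 33 and 33 CpG, against a median of 7 over all windows.

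The other motifs were less shared. CAGGACCT, the ZBTB24 core, lay 89 bases before the start of Cdca7 and in no window of the other 4 genes, and 1.99% of all windows held it. CCAAT was found in Cdca7l, Uhrf1 and Dnmt1 but not in Cdca7 or Hells (37.4% of windows). In 2 places CCAAT matches on opposite strands overlapped, at the first start of Uhrf1 and in the third window of Dnmt1. TTTGAA, the CHR element of mitotic genes, was found only in the first window of Dnmt1 (17.9% of windows), and the E-box CACGTG bound by MYC in none of the 5 genes' windows (7.15% of windows). A match is a run of letters and does not show that a factor binds.

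**Figure D1:**
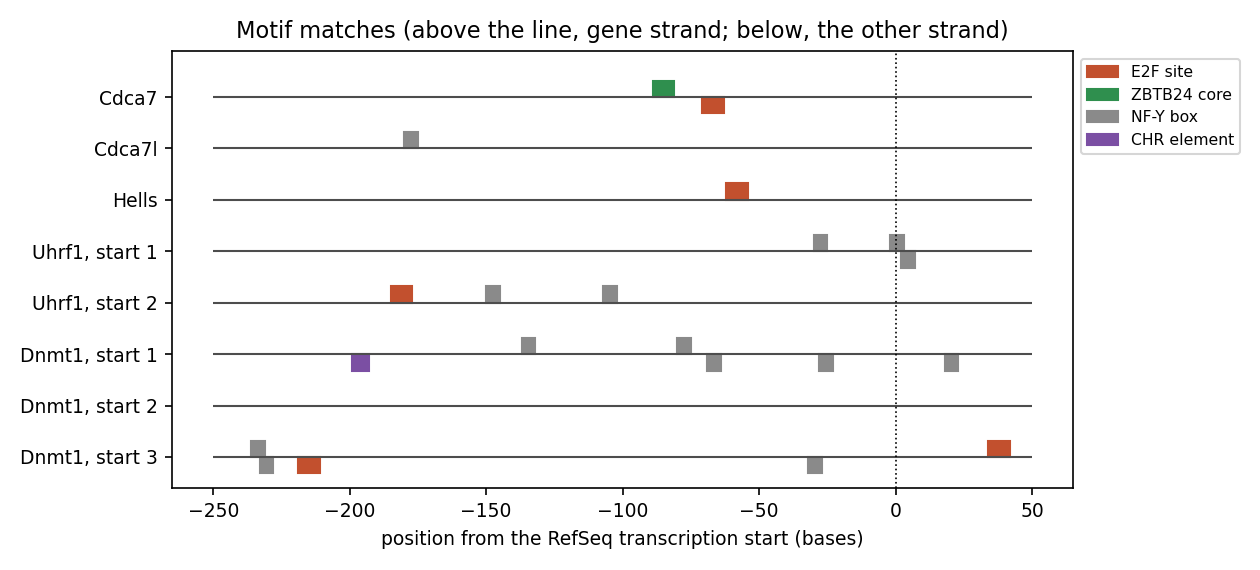
Position of motif matches in the RefSeq windows of the 5 genes, in bases from the transcription start (x axis; 1 line per start; boxes above the line lie on the gene strand, boxes below it on the other strand). The E2F site appears in Cdca7, Hells, 1 of 2 Uhrf1 windows and 1 of 3 Dnmt1 windows, and the ZBTB24 core in Cdca7 alone.

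The levels of all 5 genes were lower on each AT90ES array than on either mock array. Cdca7 was at 50.5% of its mock level, while the other 4 lay between 75.7% and 84.7% of theirs. The median log2 difference of the 5 genes was -0.40, against -0.02 over all 22180 genes, of which 54.6% had a negative difference. All 5 genes lay above background on all 4 arrays, a limit that most genes passed on each array. Levels of different probes are not compared here, since a probe's brightness also depends on its sequence.

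Cdca7, the HELLS partner, had a log2 level of 7.89 and 7.72 in mock cells, and 6.79 and 6.85 with AT90ES. The groups did not overlap, and the gap between the lowest mock and the highest AT90ES array was 0.87, against distances of 0.17 within mock and 0.06 within AT90ES. The mean went from 7.81 ± 0.12 to 6.82 ± 0.04 (SD, n = 2 arrays per group), a log2 difference of -0.99 ± 0.09 (SE from these 4 values), which is 1.98-fold lower. Only 4 genes of 22180 had a difference of -0.9 or lower, and Cdca7 was the lowest of them.

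Cdca7l, a paralog of Cdca7 whose protein binds MYC, had 9.43 and 9.56 in mock cells, and 9.23 and 9.15 with AT90ES. The groups did not overlap, with a gap of 0.20 against 0.13 and 0.08 within the groups. Its log2 difference was -0.30 ± 0.08 (SE), or 1.23-fold lower. The pair shared a direction. Cdca7 was chosen as the lowest of all genes, so its larger difference is not a separate result.

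Hells was the most variable of the 5 genes. It had 9.50 and 9.70 in mock cells, and 9.31 and 9.08 with AT90ES. The gap of 0.19 between the groups was no larger than the distance between the mock arrays, 0.20, or between the AT90ES arrays, 0.22. The mean went from 9.60 ± 0.14 to 9.19 ± 0.16 (SD, n = 2), a log2 difference of -0.40 ± 0.15 (SE), or 1.32-fold lower. Depending on the arrays paired, the difference was between -0.19 and -0.61, so the size of the Hells difference is poorly fixed by these arrays.

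Uhrf1, the reader of hemimethylated CpG, had 9.31 and 9.35 in mock cells, and 8.91 and 8.96 with AT90ES. The arrays of each group lay within 0.06 of each other, and the gap between the groups was 0.34. The log2 difference was -0.40 ± 0.04 (SE), or 1.32-fold lower (76.0% of the mock level), close in size to that of Hells but with a smaller spread.

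Dnmt1, the maintenance methyltransferase, had 9.97 and 10.04 in mock cells, and 9.78 and 9.75 with AT90ES. The groups did not overlap, with a gap of 0.19 against 0.06 and 0.03 within the groups. Its log2 difference of -0.24 ± 0.03 (SE), or 1.18-fold lower, was the smallest of the 5 genes. The SE of these 5 genes come from each gene's own 4 values and are not comparable with the limma SE given for other genes. By limma the SE was 0.11 for Dnmt1 and Uhrf1, 0.12 for Cdca7 and Cdca7l and 0.14 for Hells. Of all genes, 13.1% had a difference at least as low as that of Dnmt1, 7.79% as low as that of Cdca7l, 3.44% as low as that of Uhrf1 and 3.19% as low as that of Hells.

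**Figure D2:**
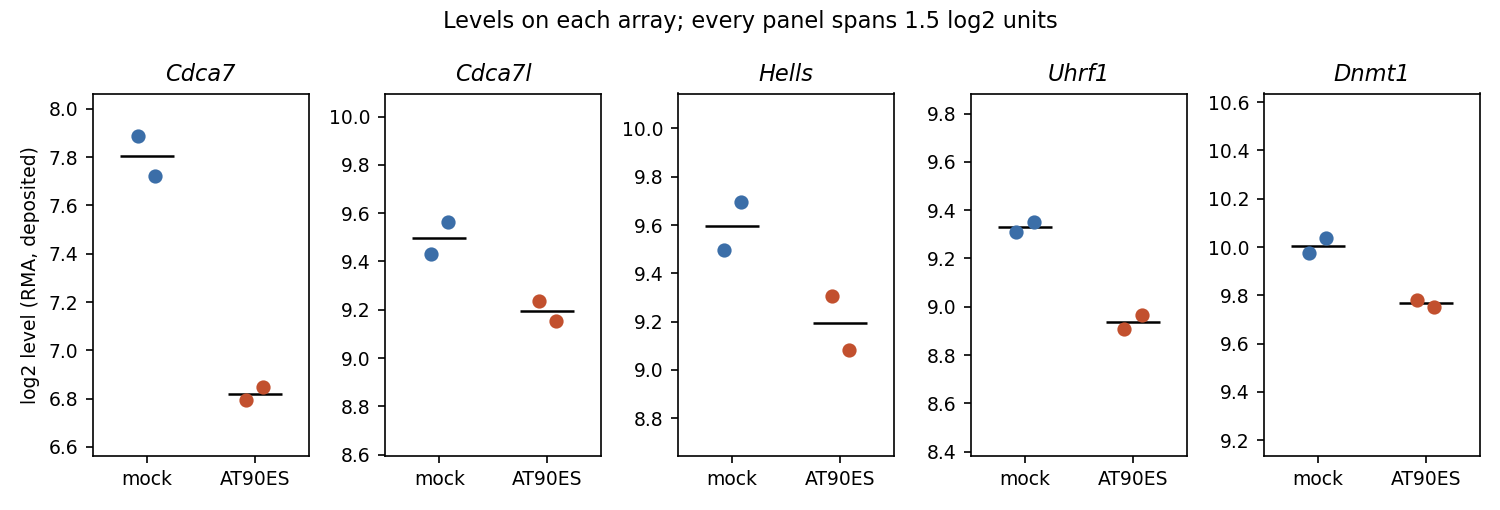
Log2 level of each gene (y axis, deposited RMA values) on the 2 mock (blue) and 2 AT90ES (red) arrays; points are arrays, bars are group means, and each panel spans the same 1.5 log2 units. No gene's groups overlap, and Cdca7 has the widest separation, 0.87 between the nearest arrays.

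As a count, 5 of 5 genes had AT90ES arrays below both mock arrays, and so did 22.1% of all genes. With limma's test over all genes, 0 of the 5 were called lower at an adjusted p under 0.05, where 0% of all genes were, and 0.415% were called higher. With raw p-values (unadjusted, under 0.05) it was 4 of the 5 (all but Dnmt1), where 4.59% of all genes were lower and 4.5% higher. Where limma let the spread depend on intensity (the trend fit), it called 3 of the 5 lower (Cdca7, Hells and Uhrf1), where 0.73% of all genes were lower and 1.94% higher. Cdca7 alone was called lower among the 11090 brighter genes (0.18% called lower) and with arrays centred on their median (0.00451% called lower, a single gene). With arrays centred on reference genes, or with a replicate block in either pairing, 0 of the 5 were called. Since the genes were chosen with this contrast known, nothing is read from these counts.

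**Figure D3:**
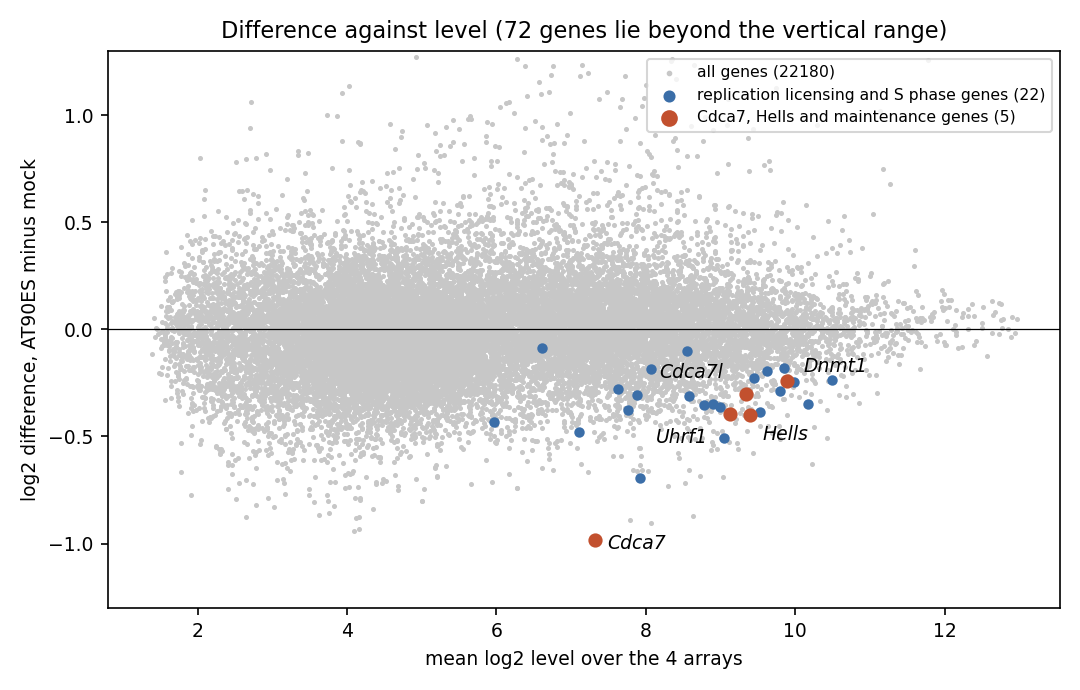
Log2 difference, AT90ES minus mock (y axis), against the mean log2 level over the 4 arrays (x axis) for 22180 genes (grey), 22 replication licensing and S phase genes (blue) and the 5 genes described here (red); 72 genes lie beyond the vertical range. Cdca7, at -0.99, is the lowest point of the plot, and the other 4 lie between -0.24 and -0.40 among the replication genes.

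The other methylation genes measured had a median difference nearer to 0. Of 9 other measured genes linked to writing methylation or to ICF syndrome, limma called 0 higher and 0 lower, with 0 by raw p and 0 in the trend fit. In 3 of the 9 the AT90ES arrays lay below both mock arrays (22.1% of all genes) and in 0 above both (17.7%). Most of the 9 do not write DNA methylation themselves, Usp7 and Trdmt1 among them. Dnmt3a, a de novo methyltransferase named outside the rule for naming genes, stood at -0.10 ± 0.11 (SE), with groups that did not overlap. The median difference of the 9 was -0.06, which is the value of Usp7, against -0.40 for the 5 genes and -0.02 for all genes. Dnmt3b, a de novo methyltransferase and ICF gene, stood at -0.03 ± 0.20 (SE) with overlapping groups. Zbtb24, the ICF gene whose protein activates Cdca7 in other cells, had 6.17 and 6.40 on the mock and 6.61 and 6.34 on the AT90ES arrays, a difference of 0.18 ± 0.15 with overlapping groups. Both ICF genes are named outside the rule for naming genes, for their place in the pathway. Dnmt3l, a cofactor of the de novo enzymes, stood at -0.23 ± 0.16 and was not above background on any array. Trdmt1, an RNA methyltransferase related to Dnmt1, stood at -0.20 ± 0.13, and Usp7, a deubiquitinase that stabilises UHRF1 and DNMT1, at -0.06 ± 0.12.

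Genes that remove methyl groups or read them were likewise not called by limma. Of 9 demethylation genes 0 passed in either direction, with 1 higher and 0 lower by raw p and 0 in the trend fit. In 4 of the 9 the AT90ES arrays lay above both mock arrays (17.7% of all genes) and in 2 below both (22.1%). Over all genes 4.5% were higher and 4.59% lower by raw p, and 1.94% and 0.73% in the trend fit. Tet1, which oxidises methylcytosine, had log2 levels of 5.09 and 5.77 on the mock and 6.48 and 6.13 on the AT90ES arrays. Its difference of 0.87 ± 0.25 did not pass (adjusted p = 0.419), and the mock arrays were 0.67 apart. Gadd45b, a stress gene linked to demethylation, stood at 0.40 ± 0.16 (adjusted p = 0.553), and Idh2, which supplies the cofactor of TET enzymes, at -0.17 ± 0.12. The list's median was 0.08, and it changed sign, to -0.0028, with arrays centred on reference genes. Of 7 methyl-CpG readers 0 passed, 0 also by raw p and 0 in the trend fit. Mbd2 stood at 0.23 ± 0.12 and Zbtb4 at -0.23 ± 0.16, and the median of -0.04 was 0.0076 without mock replicate 1. In 3 of the 7 readers the AT90ES arrays lay above both mock arrays (17.7% of all genes) and in 1 below both (22.1%).

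Among 13 heterochromatin genes limma called 0, with 0 higher (4.5% of all genes) and 1 lower (4.59%) by raw p. The trend fit called 0 of them (1.94% of all genes higher, 0.73% lower). The median was -0.04. In 5 of the 13 the AT90ES arrays lay below both mock arrays (22.1% of all genes) and in 2 above both (17.7%). Lmnb1, which encodes lamin B1 of the nuclear envelope, stood at -0.36 ± 0.13, Kmt5b, a histone H4 methyltransferase, at 0.29 ± 0.13, and Cbx3, a heterochromatin protein, at -0.21 ± 0.17. Hells belongs to the SNF2 family. Of 25 relatives limma called 0, with 1 higher (4.5% of all genes) and 2 lower (4.59%) by raw p. The trend fit called 1 of these relatives higher (1.94% of all genes) and 0 lower (0.73%). Of the 25 relatives, 7 had AT90ES arrays above both mock arrays (17.7% of all genes) and 6 below both (22.1%). Their median was -0.03, and it was positive without mock replicate 2 and without AT90ES replicate 2 (up to 0.0216). The largest differences were those of Chd2, at 0.61 ± 0.14 (adjusted p = 0.326), which the trend fit called, and Rad54l, a recombination gene, at -0.46 ± 0.13. Smarca4, the motor of BAF complexes, stood at 0.04 ± 0.12.

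The differences of genes that act at the replication fork ran from -0.59 to -0.06. Limma called 0 of 16 fork and chromatin assembly genes, with 0 higher and 5 lower by raw p (4.59% of all genes) and 3 lower in the trend fit (0.73%). All 16 differences were negative (54.6% of all genes) and in 15 the groups did not overlap, where 22.1% of all genes lay lower in that way. The median was -0.29. Chaf1a, a subunit of the histone chaperone CAF-1, stood at -0.59 ± 0.15, and Asf1b, another histone chaperone, at -0.51 ± 0.12. Lig1, the ligase whose methylated form binds UHRF1, stood at -0.37 ± 0.13, and Pclaf, a PCNA partner that helps recruit DNMT1, at -0.28 ± 0.12, both named outside the rule for their link to these proteins. Pcna, the sliding clamp, stood at -0.06 ± 0.12 with overlapping groups.

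Replication licensing and S phase genes gave 0 calls in 22 by limma, with 0 higher and 12 lower by raw p and 8 lower in the trend fit, where 4.59% and 0.73% of all genes were lower. All 22 differences were negative (54.6% of all genes), with a median of -0.31 (-0.02 for all genes), and 20 had AT90ES arrays below both mock arrays (22.1% of all genes). Cdc6, which loads the replicative helicase, had log2 levels of 8.21 and 8.33 on the mock and 7.60 and 7.55 on the AT90ES arrays, a difference of -0.69 ± 0.12 (adjusted p = 0.166). Tk1, thymidine kinase, stood at -0.51 ± 0.11 and Rrm1, of ribonucleotide reductase, at -0.23 ± 0.11. Cdca7 was chosen as the lowest of all genes, so no gene of this list could be as low. Of 18 of these genes with a RefSeq window, 8 (44.4%) held an E2F match, and of the fork genes 4 of 14. The share was 3.26% of the 16990 genes tested that had a window. The median difference was -0.37 with and -0.31 without a match in the S phase list, and -0.33 and -0.29 in the fork list. Of the other CDCA genes 0 of 4 held a match, and of the G2 and mitosis genes 1 of 16. Those without a match had medians of -0.46 and -0.29. A part of E2F sites in these differences was not tested. Over all those genes the median difference was -0.03 for the 554 with an E2F match and -0.02 for the rest.

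The 5 other genes named CDCA, for cell division cycle associated, are unrelated genes that share the name with Cdca7 and Cdca7l. Limma called 0 of them, with 0 higher and 4 lower by raw p (4.59% of all genes) and 3 lower in the trend fit (0.73%). Their median was -0.43, and 5 of 5 had AT90ES arrays below both mock arrays (22.1% of all genes). Cdca8, a subunit of the chromosomal passenger complex, stood at -0.50 ± 0.12, Cdca5, which encodes the cohesin protector sororin, at -0.49 ± 0.14, and Cdca4 at -0.43 ± 0.12. Of 19 genes of G2 and mitosis 0 were called, with 0 higher and 7 lower by raw p and 8 lower in the trend fit, against the same shares of all genes. All 19 differences were negative (54.6% of all genes), with a median of -0.29. Plk1, a mitotic kinase, stood at -0.46 ± 0.11, Bub1b, of the spindle checkpoint, at -0.43 ± 0.11, and Mki67 at -0.22 ± 0.12. Fewer dividing cells and less RNA per cell cannot be told apart in these samples, and the part of the cell cycle in the values of Cdca7, Hells, Uhrf1, Dnmt1 and Cdca7l was not tested.

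**Figure D4:**
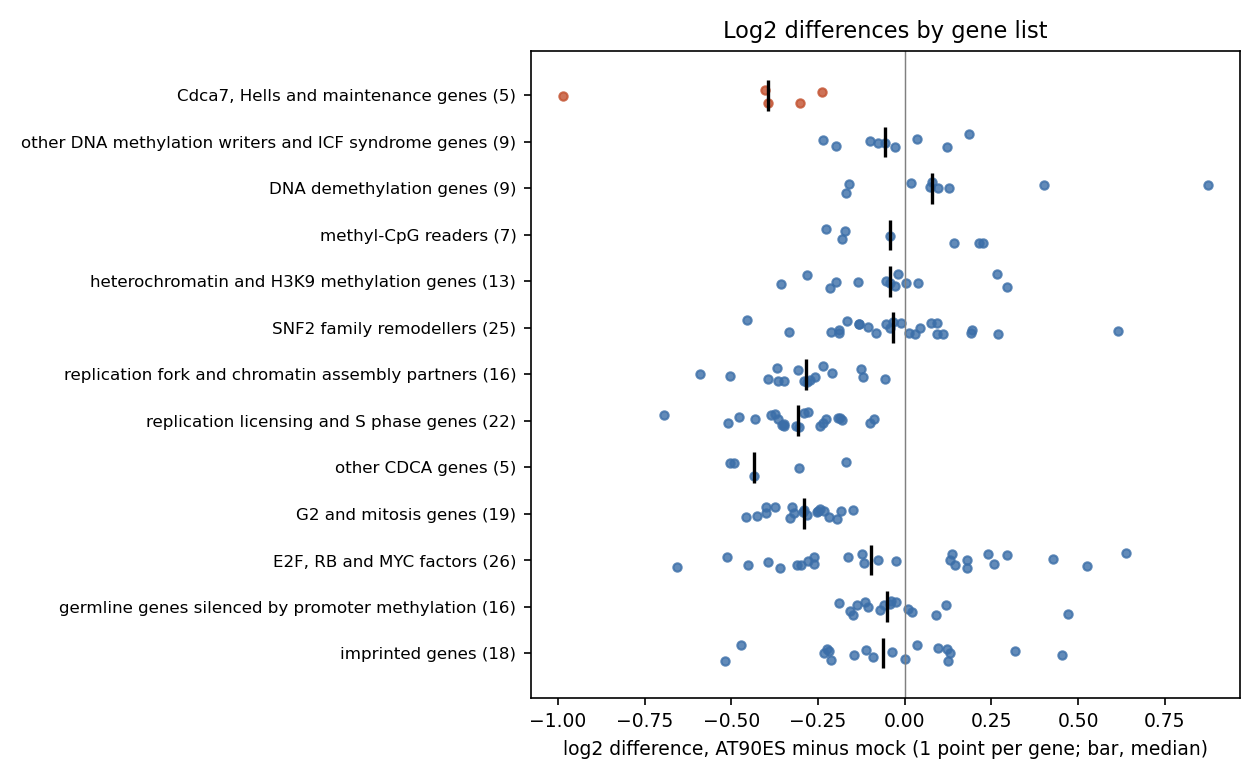
Log2 difference, AT90ES minus mock (x axis), of each gene in 13 groups (1 point per gene, black bar at the median, number of genes in brackets). The 5 genes (red, median -0.40), the fork, S phase, CDCA and mitosis genes lie to the left of 0, while the other methylation, reader, heterochromatin and SNF2 genes have medians between -0.06 and 0.08.

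Among 26 E2F, RB and MYC factors limma called 0, with 3 higher and 6 lower by raw p (4.5% and 4.59% of all genes), and 1 higher and 2 lower in the trend fit (1.94% and 0.73%). The median was -0.10. E2f8, a repressor of the E2F family, had 8.87 and 8.94 on the mock and 8.24 and 8.26 on the AT90ES arrays, a difference of -0.66 ± 0.11 (adjusted p = 0.175). Rb1, the retinoblastoma gene that restrains E2F, had 7.54 and 7.61 on the mock and 8.24 and 8.19 on the AT90ES arrays, a difference of 0.64 ± 0.12 (adjusted p = 0.188). The trend fit called both. The other 2 higher by raw p were Mxd4, at 0.53 ± 0.13, and Mxd1, at 0.43 ± 0.13, both antagonists of MYC and named after their values were seen. Mxd3, of the same family, was among the 6 lower by raw p, at -0.51 ± 0.14, so these antagonists shared no direction. Tfdp1, the partner subunit of E2F, stood at -0.12 ± 0.12. E2f1, named outside the rule, stood at -0.26 ± 0.13, and Myc, also outside it and the binding partner of CDCA7 and CDCA7L proteins, at -0.45 ± 0.12.

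Genes whose silence or dose depends on methylation were not called. Of 16 germline genes that promoter methylation silences in body cells, 0 lay above background on all 4 arrays and limma called 0, also by raw p and in the trend fit. Stk31 stood at 0.47 ± 0.25, from 2.61 and 2.47 on the mock to 3.38 and 2.64 on the AT90ES arrays, all below background, Asz1 at -0.19 ± 0.11 and Brdt at 0.01 ± 0.13. The list's median was -0.05. Of 18 imprinted genes limma called 0, with 2 higher (4.5% of all genes) and 1 lower (4.59%) by raw p. In the trend fit 1 was higher (1.94% of all genes) and 1 lower (0.73%). The higher ones by raw p were Impact, at 0.45 ± 0.11, and Igf2r, at 0.32 ± 0.12, both named after their values were seen. Impact was also the one higher in the trend fit. The lower one by raw p and in the trend fit was Mest, at -0.47 ± 0.15. Grb10 stood at -0.52 ± 0.40 with overlapping groups, lay above background on 2 of 4 arrays, and changed sign, to 0.10, without AT90ES replicate 1. Plagl1 stood at 0.13 ± 0.11, and the list's median was -0.06. Without mock replicate 1 the medians were 0.0324 and 0.0669, and that of the imprinted genes was also positive with dim genes left out. DNA methylation itself was not measured.

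The genes most like each of the 5 in pattern were found by the root mean square distance between log2 levels on the 4 arrays, after each gene's own mean was subtracted, among 10536 named genes brighter than the median gene. The distance rests on 4 values per gene. For Cdca7 the nearest were Kcnmb1 (0.139), a potassium channel subunit, Mcc (0.143), Exo1 (0.143), a nuclease of DNA repair, Chst12 (0.148) and Efna4 (0.169). These genes had differences between -0.71 and -0.87. The other 4 of the 5 genes lay farther from Cdca7 than these, Uhrf1 at 0.304, Hells at 0.334, Cdca7l at 0.361 and Dnmt1 at 0.383.

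The other 4 genes had closer matches. The distance keeps the size of a difference, and Cdca7 was chosen as the lowest of all genes, so this contrast is not a separate result. Hells was nearest to Snx30 (0.0126), Nasp (0.0133), a histone chaperone of the fork list, Cryl1 (0.0174), Hgh1 (0.0225) and Dna2 (0.0229), a replication nuclease. Uhrf1 was nearest to Nolc1 (0.0036), St6gal1 (0.0129), Cep170 (0.0134), Sipa1 (0.0166) and Tns2 (0.0172). Dnmt1 was nearest to Ddhd1 (0.0078), Mettl24 (0.0085), Rfc1 (0.0088), the large subunit of the clamp loader, Myo18a (0.0092) and Tab1 (0.0124). Cdca7l was nearest to Nsun5 (0.0058), Dennd1a (0.0105), Luc7l3 (0.0136), Ctdspl (0.0162) and Rras2 (0.0164). Within the 5 genes the closest pair was Cdca7l and Dnmt1, at 0.0447.

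**Figure D5:**
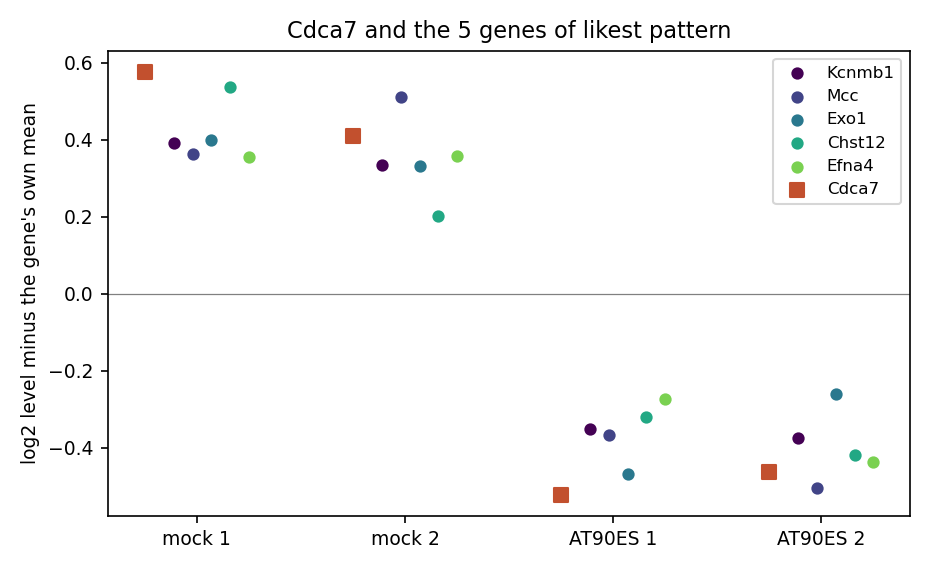
Log2 level minus the gene's own mean over 4 arrays (y axis) on each array (x axis) for Cdca7 (red squares) and the 5 genes nearest to it in pattern (circles). All 6 lie above 0 on the mock arrays and below 0 on the AT90ES arrays. Cdca7, chosen as the lowest of all genes, has the widest span of group means, -0.99.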

How the data were processed

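RNA of 4 samples was measured on Affymetrix arrays, from 300 ng of total RNA each, per the labels. The authors deposited log2 levels that came from RMA (per the submitters' processing notes), which equalises the arrays, so differences are relative to other genes. RMA's version and settings are not given in the sources used here. Of 41345 probes 23521 had 1 gene symbol in the platform annotation, and the brightest stood for its gene. The groups were compared, AT90ES minus mock, in limma 3.58.1 (R 4.3.3; lmFit, eBayes, no covariate or filter), two-sided, Benjamini-Hochberg adjusted over 22180 genes, threshold 0.05. All adjusted p-values and the SE of genes outside the 5 come from limma. An exact permutation test of 2 against 2 arrays cannot go below p = 0.333. The fit was tested on simulated data.

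The 5 genes and the gene lists were chosen with earlier results of these data known. Of 238 other listed genes 220 were measured here; 8 others lie on probes of several genes. Per list, genes past the threshold were named, or else the 2 with the largest difference and the 1 with the highest mean. Ccl5 and Cxcl10 checked the labels. Promoter windows come from RefSeq. Alternatives were an intensity trend, dim genes left out, other centring, every probe, a replicate block and leaving out each array.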

Additional observations from a re-analysis of the deposited data

How the results depend on the processing

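The 5 genes kept a negative difference under all 11 alternatives, but most of these could not have changed the sign. An intensity trend, dim genes left out, a replicate block and every probe tested separately leave the group means of these genes as they were. Leaving out 1 array cannot turn a sign where the groups do not overlap. Only centring on reference genes or on the array median could have done so. Without 1 array the difference was between -1.07 and -0.90 for Cdca7, -0.37 and -0.24 for Cdca7l, -0.51 and -0.29 for Hells, -0.42 and -0.37 for Uhrf1 and -0.27 and -0.21 for Dnmt1, and their median between -0.42 and -0.29. Centred on reference genes, the values of Cdca7l, Uhrf1 and Dnmt1 and the median moved by more than the spread between replicates, to -0.39, -0.48, -0.32 and -0.48. Counting that one, the median of the 5 genes moved by more than this spread under 3 of the 11 alternatives. Medians of the gene lists did so in 44 cases and stayed within it in 142. Over all genes, limma called 92 higher and 0 lower. Calls of higher genes numbered 431 with an intensity trend, 193 with dim genes left out, 30 with every probe tested separately and 32 to 47 without 1 array, and calls of lower genes 162, 20 and, centred on the array median, 1; each array left out kept lower calls at 0. An array left alone in its group was taken to vary as the other group did.

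With a replicate block limma called 85 higher and 0 lower. The deviations of same-numbered arrays correlated at -0.222 across genes, so a crossed pairing was added after seeing the data, with 59 higher and 0 lower. The labels do not say that numbers mark shared cultures. With dim genes left out no germline gene remained, so that list had no value. Of the genes named by rule outside the 5, with markers and the label check included, 18 values came to pass the threshold under an alternative, none that passed was lost, and none that passed changed sign. Of those in the text that were not called, Grb10, Usp7, Smarca4 and Brdt changed sign without 1 of the arrays. Dnmt3b, named outside the rule, also changed sign in this way. With 2 arrays a group, small differences such as those of Cdca7l and Dnmt1 are weakly fixed.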
